A study of Caenorhabditis elegans with 10 samples.

Results

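The DNA sites of the transcription factor PQM-1 were compared between animals with a normal ceh-60 gene and animals with the deletion allele ceh-60(ok1485). The members are the peaks of 2 deposited chromatin immunoprecipitation sequencing (ChIP-seq) lists on the 6 nuclear chromosomes, 6001 peaks from the strain OP201 and 5020 from the strain DLS422. Together they make 11021 of the 40986 peaks deposited for 8 libraries of the nematode C. elegans. A peak was called shared where it overlapped a peak of the other list by at least 1 bp, and otherwise OP201-only or DLS422-only. Those names describe the called lists, since a site below the calling threshold in one library is absent from its list whatever signal it held.

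PQM-1 is a zinc finger protein that acts in the intestine. It enters intestinal nuclei while insulin signalling is active, when the forkhead factor DAF-16 is kept out of them, and it is known for its part in growth, reproduction, lipid use and stress responses. CEH-60 belongs to the PBX family of homeodomain factors, and its partner UNC-62 to the MEIS family. CEH-60 and UNC-62 act in the adult intestine at the vitellogenin genes, which encode the yolk proteins that provision oocytes.

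Both libraries came from whole adults on day 1 of adulthood, crosslinked in 1% formaldehyde for 5 min, and both used the anti-FLAG antibody M2. OP201 has the labelled genotype unc-119(tm4063) with wgIs201, a transgene that carries a FLAG-tagged pqm-1, and normal ceh-60. DLS422 has ceh-60(ok1485) with the same wgIs201, and its label names no unc-119 allele. A contribution of unc-119 and one of ceh-60 cannot be told apart by these labels. The animals keep their own pqm-1 gene as far as the labels say, so wgIs201 adds tagged copies to it. CEH-60 was recovered in the same protocol through an HA tag in DLS395 (ceh-60(rhd116), replicate 2) and in DLS435, which also has the deletion allele pqm-1(ok485). A further protocol, with 2% formaldehyde for 30 min, gave CEH-60 replicate 1, CEH-60 with the antibody mIgG1, and the CEH-60 and UNC-62 lists of DLS396. Each PQM-1 group has 1 library, so there is no replicate spread, no test and no p-value for any difference between them.

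Read depth is unknown, and the number and strength of peaks are the nearest measure of what each library recovered. The OP201 peaks covered 2.73% of the span of the chromosomes up to their last gene and the DLS422 peaks 2.25%. Median width was 339 bp in OP201 and 332.5 bp in DLS422. The fold enrichment is the authors' own ratio of the summit to its local background and is used here within a list. Its median was 2.38 in OP201 (range 1.45 to 6.65) and 2.34 in DLS422 (range 1.47 to 5.69). The highest −log10 q was 96.3 in OP201 and 73.8 in DLS422. The shorter list also had the lower highest value, and the part of library depth or of recovery in the differences below was not tested.

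Most PQM-1 peaks were found with and without ceh-60, and nearly all of the strong ones were. Of the OP201 peaks, 67.9% overlapped a DLS422 peak (4076 of 6001, Wilson 95% interval 66.7 to 69.1%, which covers counting error only). Of the DLS422 peaks, 83.4% overlapped an OP201 peak (4189 of 5020, 82.4 to 84.4%). The remaining peaks were 1925 OP201-only and 831 DLS422-only. Shares climbed with strength in both lists. In the OP201 list, 35.4% of peaks in the lowest decile of fold overlapped a DLS422 peak, against 61.0% in the fifth decile and 99.3% in the highest. In the DLS422 list, the same shares were 63.9%, 81.9% and 100%. The OP201 share lay below the DLS422 share in each of the 10 deciles, with the narrowest gap in the highest.

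**Figure D1:**
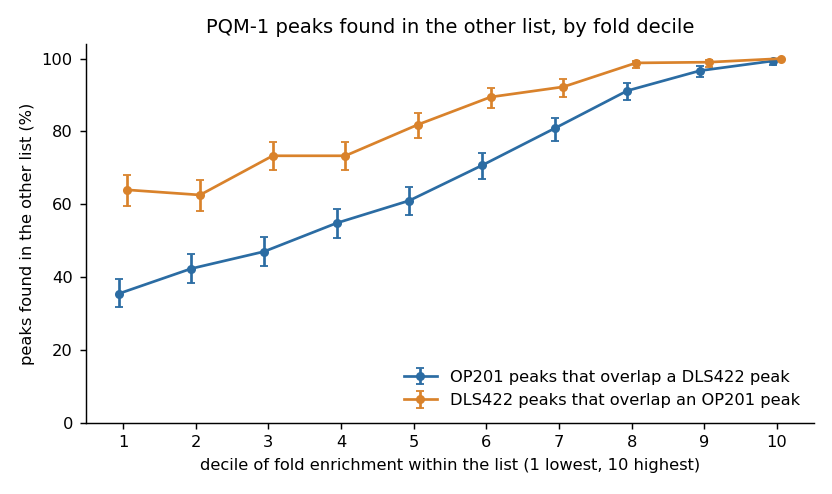
Share of PQM-1 peaks (%, y axis) that overlap a peak of the other list, by decile of fold enrichment within the list (x axis), for OP201 peaks (blue) and DLS422 peaks (orange). Points are shares and bars are Wilson 95% intervals; the lowest OP201 decile is at 35.4% and the highest at 99.3%.

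Unshared peaks were weaker and narrower than shared ones in both lists. Sharing was defined on the intervals, so a wide peak is more likely to overlap another, and the widths are a description. The median fold of OP201-only peaks was 2.10 and that of shared OP201 peaks 2.61, and their median widths were 236 and 421 bp. DLS422-only peaks had a median fold of 2.07 and a median width of 226 bp, beside 2.43 and 366 bp for shared DLS422 peaks. The highest fold of an OP201-only peak was 3.75 and that of a DLS422-only peak 3.12. A −log10 q under 5 was given to 594 OP201-only peaks (30.9%) and to 370 DLS422-only peaks (44.5%). At the other end, 310 of 1925 OP201-only peaks and 30 of 831 DLS422-only peaks reached 10 or more. OP201 thus held more unshared peaks than DLS422 among both the weak and the strong ones.

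**Figure D2:**
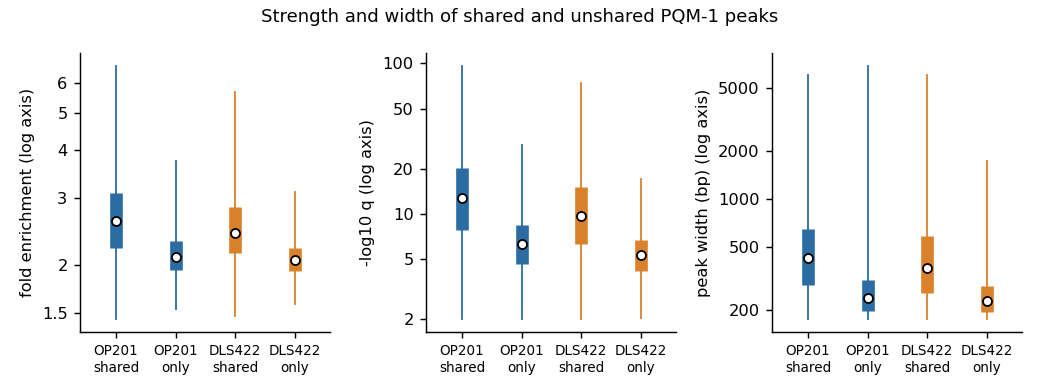
Fold enrichment (left), −log10 q (middle) and peak width in bp (right), on log axes, of shared and unshared peaks of OP201 (blue) and DLS422 (orange). Thin lines span the range, thick bars the quartiles and white points the median; unshared medians, such as a fold of 2.10 against 2.61 in OP201, lie below shared ones in each list.

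Where peaks overlapped, their summits lay close together. The 4403 overlapping pairs had a median distance between summits of 37 bp (quartiles 14 and 95 bp), and 59.4% of pairs had summits at most 50 bp apart. Among the 3439 pairs in which each peak met a single peak of the other list, the median was 31 bp. Wide regions were split differently in places, as 289 OP201 peaks met 2 or more DLS422 peaks and 197 DLS422 peaks met 2 or more OP201 peaks.

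Many unshared peaks lay beside a peak of the other list. An OP201-only peak was a median of 2581 bp from the nearest DLS422 peak, and 423 of them (22%) lay at most 500 bp from one. DLS422-only peaks were closer, with a median of 741 bp and 325 of 831 (39.1%) at most 500 bp away. More than 5 kb from any peak of the other list were 778 OP201-only peaks (40.4%) and 143 DLS422-only peaks (17.2%). Of these isolated peaks, 170 in OP201 and 7 in DLS422 had a −log10 q of 10 or more. Few peaks sat at the boundary of the overlap rule. By 10 bp or less, 4 OP201 peaks were shared and 5 were unshared, and in DLS422 these counts were 5 and 2.

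The length of the lists was also evened out by taking the peaks of highest −log10 q. Of the top 100 OP201 peaks, 54 met one of the top 100 DLS422 peaks, and all 100 met some DLS422 peak. For the top 2000, these counts were 1513 and 1900. In the other direction, 1545 of the top 2000 DLS422 peaks met one of the top 2000 OP201 peaks, and 1973 met some OP201 peak.

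A protein-coding gene counted as bound when a summit fell in a window around either end, reaching 1000 bp outwards and 200 bp inwards, since strand, exons and UTRs were not used here. Coordinates are 1-based, as deposited, in a genome build that was not given in the sources used here. Several gene families lay at the strongest shared peaks. The highest OP201 fold, 6.65, belonged to a peak at the end of the chemoreceptor gene srz-62 (IV 3899578 to 3901041), where the DLS422 peak had a fold of 5.59 in its own list. Next came oatr-1, which encodes an ornithine aminotransferase (III 6395730 to 6397017), with folds of 5.47 in OP201 and 5.46 in DLS422. Both lists placed these peaks among their 3 highest. The other shared peaks of highest OP201 fold lay at spsp-1 and scav-6, a scavenger receptor of the CD36 family, at Y75B8A.28, at pgp-1, an ABC transporter of the P-glycoprotein type, at B0507.3, at C17F4.7 and the F-box gene fbxc-50, at the F-box genes fbxc-33 and fbxc-29, at C52E2.2, and at pals-17. Their OP201 folds were between 4.99 and 5.42. In DLS422 the highest fold of all, 5.69, lay between cld-1 and dod-21 (IV 12936241 to 12936779), where OP201 had a peak with a fold of 4.32. High in the DLS422 list, too, were shared peaks at Y58A7A.1 (5.20), at F38A1.13 and the C-type lectin gene clec-170 (5.16), and at the choline kinase gene ckc-1 (5.06). These strongest shared sites also carried peaks of 4 to 6 of the other 6 lists each.

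Among OP201-only peaks with a bound gene, the highest fold was 3.75 at Y40H7A.10 (IV 15215512 to 15215853). It ranked 312 among 6001 OP201 peaks, and the nearest DLS422 peak was 177393 bp away. All 6 other lists had a peak there. The second was at nas-29, an astacin-type metalloprotease gene, and F58A6.1 (II 5141989 to 5142518, fold 3.52), 31941 bp from a DLS422 peak. A peak at atfs-1, the transcription factor of the mitochondrial unfolded protein response, had a fold of 3.26 (V 14193442 to 14193781) and lay 17986 bp from a DLS422 peak. The peak at nsy-1, the kinase that heads the PMK-1 cascade of innate immunity, and F59A6.13 had a fold of 3.16 (II 5022356 to 5022672) and lay 2358 bp from a DLS422 peak. The rest of these 10 peaks lay at gldi-3, the chitinase-like gene chil-14, Y43F8B.23 and Y43F8B.12, F59B1.8 and F59B1.10, gid-2, and C06H5.6, with folds of 3.10 to 3.48. At gldi-3 the gene itself was bound in both lists through another DLS422 peak.

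Of the 10 DLS422-only peaks of highest fold with a bound gene, 6 lay at genes that OP201 bound through another peak. The highest were at the C-type lectin gene clec-75 (IV 3963455 to 3963889, fold 3.03), at the fatty acid elongase gene elo-9 (II 14959359 to 14959579, 3.01) and at the calmodulin-related gene cal-1 (V 12517091 to 12517419, 2.95). All of those genes were bound in both lists. Genes bound in DLS422 and not in OP201 were the arrestin-domain genes arrd-11 (fold 2.70) and arrd-13 (2.63), which lie in one run of DLS422-only peaks on chromosome II, scl-23 (2.67) and clec-174 (2.60). The peak at scl-23 was 38580 bp from an OP201 peak. The remaining peaks lay at R08F11.1, math-37 and C16H3.3, with folds of 2.60 to 2.67. None of these 10 peaks ranked higher than 756 among the 5020 DLS422 peaks.

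The vitellogenin genes were the list in which the bound counts of OP201 and DLS422 lay furthest apart as a share of members, with 5 of 6 genes bound in OP201 and 0 of 6 in DLS422. Over all protein-coding genes, 16.9% were bound in OP201 and 13.4% in DLS422. In OP201, 26 peaks lay within 5 kb of a vitellogenin gene and 10 touched one; in DLS422, 6 lay within 5 kb and 0 touched one. None of the 10 touching peaks was shared. At vit-1 the touching OP201 peak (X 7727513 to 7727956) had a fold of 2.94, and at vit-5 the touching peaks had folds of 3.03 (X 3403199 to 3403641), 2.41 (X 3406808 to 3407261) and 2.72 (X 3408467 to 3409499). At vit-2 there were 4 touching peaks, with folds of 2.11 to 2.58. The gene vit-4 was touched by a peak with a fold of 2.28 and had another, with a fold of 2.75, 12 bp away (X 3563978 to 3564819), and the peak nearest to vit-3 was 9 bp away with a fold of 2.13. By fold, the touching peaks ranked from 1137 (vit-5, 3.03) to 4339 (vit-2, 2.11) of 6001, beside a median fold of 2.38 in the OP201 list. Along vit-6 a single peak of 6843 bp (fold 2.79) covered 100% of the gene. Its summit was too far inside the gene to meet the rule for a bound gene. OP201 peaks covered 65.1% of vit-2 and 14.8% of vit-5, and DLS422 peaks 0% of all 6 genes. The reads of vit-3, vit-4 and vit-5, which are near-identical copies, can be placed at any of them depending on how the authors mapped them.

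PQM-1 peaks in DLS422 were present in the neighbourhood of 4 of the 6 genes. The nearest DLS422 peak was 908 bp from vit-4 (fold 2.50), 1801 bp from vit-1 (fold 2.99), 2905 bp from vit-2 (fold 2.09) and 3530 bp from vit-3. The last of these was the ckc-1 peak, with a fold of 5.06. All of them overlapped an OP201 peak. From vit-5 and vit-6 the nearest DLS422 peaks were 63661 and 35444 bp away. Of the 26 OP201 peaks within 5 kb of a vitellogenin gene, 6 were shared, so unshared peaks lay beside the genes as well as on them, as at vit-1 (X 7727124 to 7727366, fold 2.09) and vit-2 (X 5107393 to 5107651, fold 2.21).

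Of the genes that regulate vitellogenesis, 10 of 17 were bound in OP201 and 8 in DLS422, and those 8 were bound in both. They include elt-2, which encodes the main intestinal GATA factor (OP201 fold 2.97, DLS422 fold 3.21), mab-3 (2.60 and 2.32), which represses yolk genes in males, the kinase gene sgk-1 (2.50 and 2.39), and unc-62 (2.50 and 2.40). Those bound in OP201 and not in DLS422 were elt-7, a GATA factor related to elt-2 (fold 2.15, 32619 bp from a DLS422 peak), and din-1 (2.20), where a DLS422 peak lay on the gene with its summit outside the window. The ceh-60 gene was bound in both lists, at X 6530441 to 6531226 in OP201 (fold 3.96) and X 6530529 to 6531260 in DLS422 (fold 2.89). Within 5 kb of it lay 7 OP201 and 10 DLS422 peaks. On the gene itself OP201 had 2 peaks (X 6522577 to 6523102 and X 6524820 to 6525053) and DLS422 had 0. DNA deleted in ok1485 cannot give reads, and the extent of that deletion was not given in the sources used here. At pqm-1, peaks covered 97.1% of the gene in OP201 and 97.0% in DLS422, and at unc-119 neither list had a peak within 5 kb. Both libraries carry the transgene copies of pqm-1, so reads there do not show binding alone.

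Over all 19971 protein-coding genes, 3376 (16.9%) were bound in OP201 and 2679 (13.4%) in DLS422. Both lists bound 2407 genes (12.1%), OP201 alone 969 (4.85%) and DLS422 alone 272 (1.36%). Of the genes bound in OP201, 71.3% were also bound in DLS422, and of those bound in DLS422, 89.8% were also bound in OP201. With the stricter demand that no peak of the other list lay within 5 kb of the gene, the unshared genes were 524 and 72. Against these backgrounds, 39 gene lists were counted, of which 21 hold named genes and 18 hold gene families taken by symbol. More genes were bound in OP201 in 31 of them, 6 had equal counts and 2 had more in DLS422, and the OP201 list is also the longer one. In 24 lists no gene was bound in DLS422 alone.

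**Figure D3:**
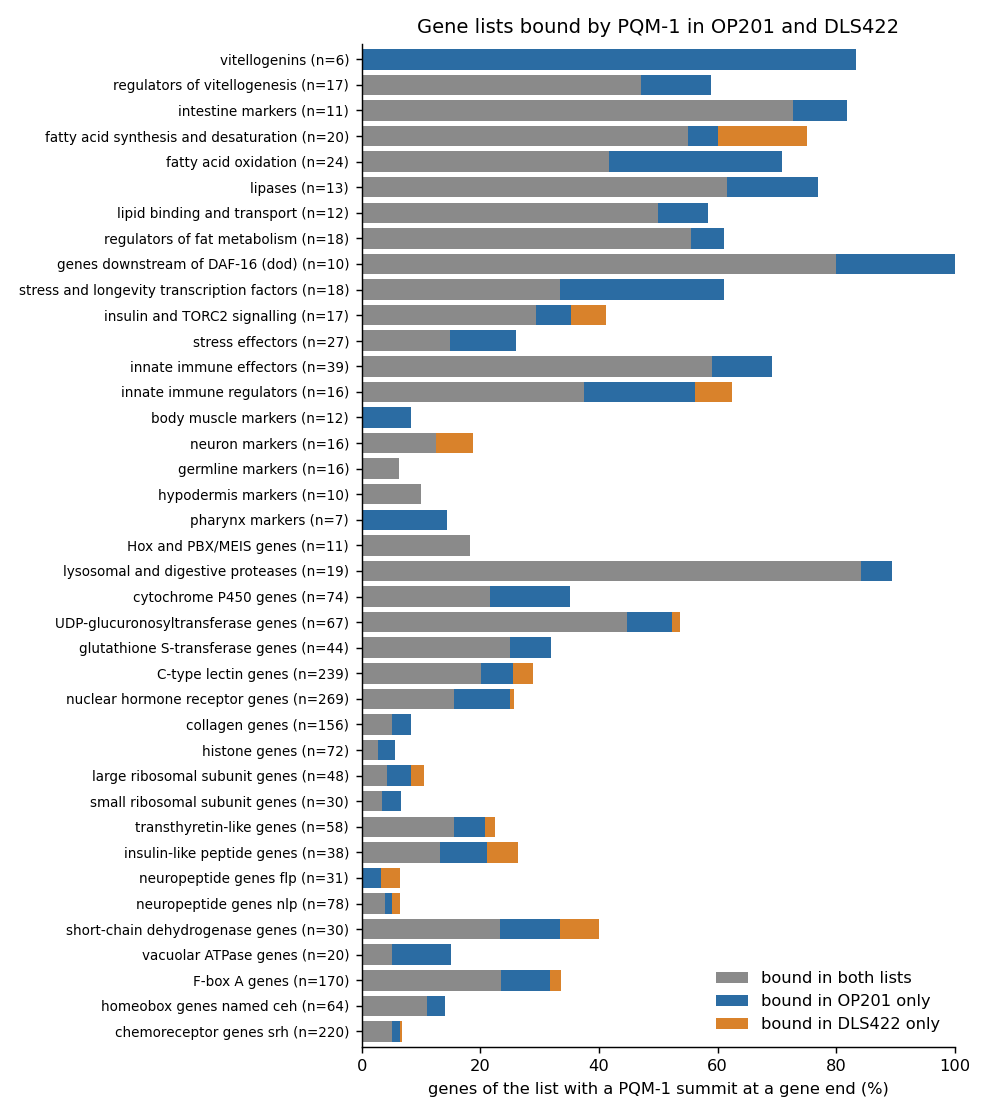
Share of the genes of each list (%, x axis) with a PQM-1 summit at a gene end, split into genes bound in both lists (grey), OP201 only (blue) and DLS422 only (orange); n is the number of genes found. Vitellogenins have 5 of 6 genes in blue and 0 in grey, while lysosomal and digestive proteases have 16 of 19 in grey.

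Intestinal marker genes were bound in both strains. Of 11 genes, 9 were bound in OP201 and 8 in DLS422, all 8 in both, among them cpr-6 (OP201 fold 3.82, DLS422 fold 2.98), the peptide transporter gene pept-1 (3.56 and 2.99) and the intestinal actin gene act-5 (3.50 and 3.29). The remaining gene was elt-7. For markers of other tissues the counts were small, and with backgrounds of 16.9% and 13.4% nothing is read from them. In OP201 1 of 12 body muscle, 2 of 16 neuron, 1 of 16 germline, 1 of 10 hypodermis and 1 of 7 pharynx markers were bound, and in DLS422 0, 3, 1, 1 and 0. Those named by the rule were unc-60, which regulates actin filaments in muscle (OP201 alone), tph-1 and egl-21 in neurons (both) with mec-3 in DLS422 alone, cgh-1 in the germline (both), elt-3 in the hypodermis (both) and pha-4 in the pharynx (OP201 alone). A summit at a marker gene is a binding site and not a measure of expression. In whole animals, fewer cells with a site and less binding per cell cannot be told apart.

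Lipid genes made up the next groups. For fatty acid synthesis and desaturation, the bound genes numbered 12 of 20 in OP201 and 14 in DLS422, and this was one of 2 lists with the higher count in DLS422. In both lists 11 of the 20 were bound, led by the elongase gene elo-1 (IV 9525639 to 9526524, OP201 fold 4.02, DLS422 fold 2.92), the stearoyl-CoA desaturase gene fat-7 (3.55 and 3.60), elo-5 (3.42 and 3.30) and elo-2 (3.39 and 3.23). The desaturase genes fat-3 and fat-4 shared one peak (3.13 and 3.35). Bound in DLS422 alone were acs-1, which activates branched-chain fatty acids (V 6523550 to 6525384, fold 4.26), elo-3 (2.61) and the desaturase gene fat-6 (2.22), and each of these genes also had an OP201 peak on it whose summit lay outside the window. Bound in OP201 alone was elo-7 (2.22). With a window of 2000 bp the counts were 17 in OP201 and 16 in DLS422, so the order of the strains rests on the window.

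Of the fatty acid oxidation genes, 17 of 24 were bound in OP201 and 10 in DLS422, and those 10 were bound in both. Shared sites lay at the peroxisomal transporter gene pmp-1 (OP201 fold 3.75, DLS422 fold 2.81), at dhs-28 (3.12 and 2.44) and daf-22 (2.97 and 2.49), which shorten fatty acids in the peroxisome, and at ech-8 (2.89 and 3.57). The 7 genes bound in OP201 alone were cpt-2, a carnitine palmitoyltransferase gene (fold 2.64, 25753 bp from a DLS422 peak), acdh-2 (2.25), ech-6 (2.22), maoc-1 (2.08), acox-1.3 and acox-1.4, which share one peak (1.93), and hphd-1 (1.91). All but cpt-2 had folds under the OP201 median of 2.38, and at acox-1.3 and hphd-1 a DLS422 peak lay on the gene with its summit outside the window. Their share also bound in DLS422 was 58.8%, beside 71.3% over all OP201-bound genes, with no test of the difference.

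In the other lipid groups, most genes bound in OP201 were also bound in DLS422. The shares were 80% for lipases, 85.7% for lipid binding and transport and 90.9% for regulators of fat metabolism. They stand beside 71.3% over all OP201-bound genes, with no test of the difference. For lipases, 10 of 13 genes were bound in OP201 and 8 in DLS422. Led by lipl-5 (OP201 fold 3.60, DLS422 fold 3.27), lipl-1 (3.32 and 3.12), lipl-2 (2.99 and 1.86) and the triglyceride lipase gene atgl-1 (2.67 and 2.00), the 8 were bound in both, and lipl-3 (2.38) and lipl-7 (2.31) in OP201 alone. Lipid binding and transport genes gave 7 and 6 of 12, with the fatty acid binding protein gene lbp-5 (3.19 and 3.11) and the lipid droplet gene plin-1 (3.15 and 3.25) in both and lbp-8 (2.85) in OP201 alone. At lbp-8 a DLS422 peak lay 25 bp from the gene without a summit in the window. Regulators of fat metabolism gave 11 and 10 of 18. The nuclear hormone receptor genes nhr-8 (IV 7710767 to 7711438, 4.61 and 3.16), nhr-68 (3.62 and 2.87) and nhr-80 (3.51 and 3.16) and the Krüppel-like factor gene klf-1 (4.07 and 3.20) were bound in both, and nhr-10 (2.18) in OP201 alone.

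The dod genes are named as downstream of DAF-16, the factor that PQM-1 opposes. All 10 were bound in OP201 and 8 in DLS422, including dod-21 (OP201 fold 4.32, DLS422 fold 5.69), dod-19 (3.89 and 3.78) and dod-3 (3.29 and 2.61). The other two were dod-6 (III 10196803 to 10197311, OP201 fold 3.03), with its nearest DLS422 peak 106860 bp away, and dod-18 (1.71). Of the transcription factors of stress and longevity, 11 of 18 were bound in OP201 and 6 in DLS422. Bound in both were xbp-1, of the unfolded protein response of the endoplasmic reticulum (III 4193442 to 4194126, 4.24 and 2.80), daf-16 (3.37 and 2.88), elt-2, elt-3, fkh-9 and pqm-1. Bound in OP201 alone were atfs-1 (3.26), zip-2 (2.35), pha-4 (2.22), hif-1, the hypoxia factor (2.18), and atf-7 (1.96). Here 54.5% of the genes bound in OP201 were also bound in DLS422, beside 71.3% over all genes, with no test of the difference. At zip-2, pha-4 and atf-7 a DLS422 peak lay on the gene or at most 50 bp from it, and atfs-1 and hif-1 were 15178 and 1940 bp from one.

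Insulin and TORC2 signalling genes had equal counts, 6 of 17 in each list, with 5 in both. These were the insulin-like gene ins-7 (OP201 fold 3.38, DLS422 fold 2.45), daf-16, ist-1 (2.67 and 2.77), sgk-1 and par-5 (2.34 and 2.29). The phosphoinositide kinase adaptor gene aap-1 (1.90) was bound in OP201 alone and akt-1 (2.26) in DLS422 alone. At akt-1 an OP201 peak lay on the gene with its summit outside the window. Effectors of stress resistance gave 7 and 4 of 27 (25.9 and 14.8%), beside 16.9 and 13.4% of all genes. Of the 7, 57.1% were also bound in DLS422, beside 71.3% over all OP201-bound genes, with no test of the difference. The 4 bound in both were clec-41 (3.92 and 3.50), asp-12 (3.07 and 3.12), the metallothionein gene mtl-2 (2.45 and 2.35) and the superoxide dismutase gene sod-1 (2.09 and 2.01). The chaperone genes hsp-4 (2.15) and hsp-90 (1.99) and the glutathione synthesis gene gcs-1 (1.91) were bound in OP201 alone.

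Innate immune effector genes were a strongly bound group in both strains, 27 of 39 in OP201 and 23 in DLS422, with all 23 in both. Peaks of high fold lay at irg-4 (IV 12435379 to 12435887, OP201 fold 4.22, DLS422 fold 4.37), at the lysozyme gene lys-8 (4.15 and 4.05) and at the saposin-like genes spp-2 and spp-3, which share an OP201 peak (4.10). The lysozyme genes lys-2 and lys-3 shared a peak in each list (3.91 and 4.22). Bound in OP201 alone were spp-4 (3.09), lys-6 (2.58), thn-2 (2.37) and spp-9 (2.00), and at spp-4 a DLS422 peak lay on the gene with its summit outside the window. Immune regulators gave 9 and 7 of 16. The purine phosphorylase gene pnp-1 (IV 291354 to 293427, 4.69 and 4.51), the kinase gene pmk-1 (3.41 and 2.95) and the Smad gene sma-3 (2.97 and 2.95) were bound in both. In the kinase cascade above PMK-1, nsy-1 (3.16) was bound in OP201 alone and sek-1 (2.01) in DLS422 alone. Just outside the window of 1000 bp, an OP201 peak lay 1140 bp from sek-1, and the nearest DLS422 peak was 2759 bp from nsy-1.

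Digestive and lysosomal protease genes had 17 of 19 members bound in OP201 and 16 in DLS422. Those shares, 89.5% and 84.2%, were the second highest of the 39 lists in OP201, after the dod genes, and the highest in DLS422. The cathepsin B-like genes cpr-3 (V 15298417 to 15299034, OP201 fold 4.88, DLS422 fold 4.88), cpr-4 (4.44 and 4.10), cpr-1 (4.14 and 3.36) and cpr-6 were bound in both, and cpr-5 (2.10) in OP201 alone, 42283 bp from a DLS422 peak. Detoxification enzymes fall into 3 of the families. For cytochrome P450 genes, 26 of 74 were bound in OP201 and 16 in DLS422, so that 61.5% of the OP201-bound genes were also bound in DLS422, beside 71.3% over all genes. Their strongest, cyp-37B1 (3.75 and 2.88), cyp-13A8 (3.55 and 2.84), cyp-35A3 (3.48 and 2.96) and cyp-33E2 (3.32 and 3.05), were bound in both, and 10 were bound in OP201 alone. Of the UDP-glucuronosyltransferase genes, 35 of 67 were bound in OP201 and 31 in DLS422, with 30 in both, among them ugt-62 (4.31 and 3.44) and ugt-44 (3.95 and 3.50). Glutathione S-transferase genes gave 14 and 11 of 44, led by gst-42 (3.43 and 3.82). The P450, UDP-glucuronosyltransferase and other tandem families hold close copies, between which reads may be divided.

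Nuclear hormone receptor genes, the largest family counted, had 67 of 269 bound in OP201, 44 in DLS422 and 42 in both. Of the OP201-bound receptor genes 62.7% were also bound in DLS422, beside 71.3% over all genes, a difference that was not tested. After nhr-8, the strongest were nhr-35 (OP201 fold 4.38, DLS422 fold 3.69), nhr-14 (3.99 and 2.81) and nhr-3 (3.90 and 3.40), each in both lists. C-type lectin genes, many of which are induced by pathogens, gave 61 and 56 of 239 with 48 in both, 13 in OP201 alone and 8 in DLS422 alone. This is the second largest family counted. At the head stood clec-186 (4.30 and 3.73), clec-184 (4.22 and 4.37) and clec-265 (4.22 and 3.50). F-box A genes gave 54 and 43 of 170 with 40 in both, led by fbxa-50 (4.30 and 4.71).

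The other families are given beside the share of all genes, 16.9% in OP201 and 13.4% in DLS422, and no test was made of any family. Collagen genes gave 13 of 156 in OP201 and 8 in DLS422, histone genes 4 and 2 of 72, large ribosomal subunit genes 4 and 3 of 48, small ribosomal subunit genes 2 and 1 of 30, and chemoreceptor genes named srh 14 and 12 of 220. For neuropeptide genes the counts were equal, 1 and 1 of 31 flp genes and 4 and 4 of 78 nlp genes. The genes were not all the same, as 0 flp genes and 3 nlp genes were bound in both lists. Vacuolar ATPase genes gave 3 and 1 of 20, and homeobox genes named ceh 9 and 7 of 64. Transthyretin-like genes gave 12 and 10 of 58 (20.7 and 17.2%), insulin-like peptide genes 8 and 7 of 38 (21.1 and 18.4%), and short-chain dehydrogenase genes 10 and 9 of 30 (33.3 and 30.0%). The collagen, histone, ribosomal, neuropeptide and srh shares lay on the low side and the short-chain dehydrogenase shares on the high side. Vacuolar ATPase genes were at 15% in OP201 and at 5% in DLS422, where 1 gene of 20 was bound. The other shares lay near those of all genes. Among 11 Hox, PBX and MEIS genes, the 2 bound, ceh-60 and unc-62, were bound in both lists.

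On chromosomes I, II and III, the 95% intervals of some classes did not overlap, and these intervals cover counting error only. Peaks are not replicates of a strain, and no difference between strains was tested. On X lay 25.1% of shared peaks (OP201 peaks, 95% interval 23.8 to 26.5%), 25.6% of OP201-only peaks (23.7 to 27.6%) and 28.6% of DLS422-only peaks (25.7 to 31.8%), and these intervals overlap. Chromosome I held 9.96% of shared (9.08 to 10.9%), 12.26% of OP201-only (10.9 to 13.8%) and 5.90% of DLS422-only peaks (4.49 to 7.71%). On III lay 11.7% of shared (10.7 to 12.7%), 14.96% of OP201-only (13.4 to 16.6%) and 9.99% of DLS422-only peaks (8.13 to 12.2%). There the intervals of shared and DLS422-only peaks overlap. On II lay 17.6% of shared (16.43 to 18.8%), 14.7% of OP201-only (13.2 to 16.35%) and 17.1% of DLS422-only peaks (14.7 to 19.8%). The last interval overlaps those of both other classes. The shares of OP201 peaks found in DLS422 were lowest on III (62.3%) and I (63.2%) and reached 71.7% on II. By genes, 61.5% of those bound in OP201 on chromosome I were also bound in DLS422, against 69.6 to 74.7% on the other 5. The summits of DLS422-only peaks lay inside a protein-coding gene in 54.9% of cases (51.5 to 58.2%), beside 40.3% of shared (38.8 to 41.8%) and 44.3% of OP201-only peaks (42.1 to 46.5%).

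Peaks of CEH-60 and UNC-62, which the overlap rule did not use, were more frequent at shared PQM-1 peaks than at unshared ones in all 6 other lists. In the CEH-60 list of the same protocol (replicate 2, 3430 peaks), 56.3% of shared PQM-1 peaks (54.8 to 57.8%) overlapped a CEH-60 peak. The share was 20.8% of OP201-only peaks (19.1 to 22.7%) and 6.50% of DLS422-only peaks (5.01 to 8.38%). The CEH-60 list of DLS435, made without pqm-1, gave 36.7%, 9.30% and 2.53%. In the longer CEH-60 replicate 1 list of the other protocol the shares were 88.3%, 68.4% and 36.8%. UNC-62 peaks overlapped 32.7% of shared, 16% of OP201-only and 1.56% of DLS422-only peaks. Sites in none of the 6 other lists made up 9.35% of shared, 28% of OP201-only and 56.3% of DLS422-only peaks. The order of the classes, shared above OP201-only above DLS422-only, was thus the same in every list.

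**Figure D4:**
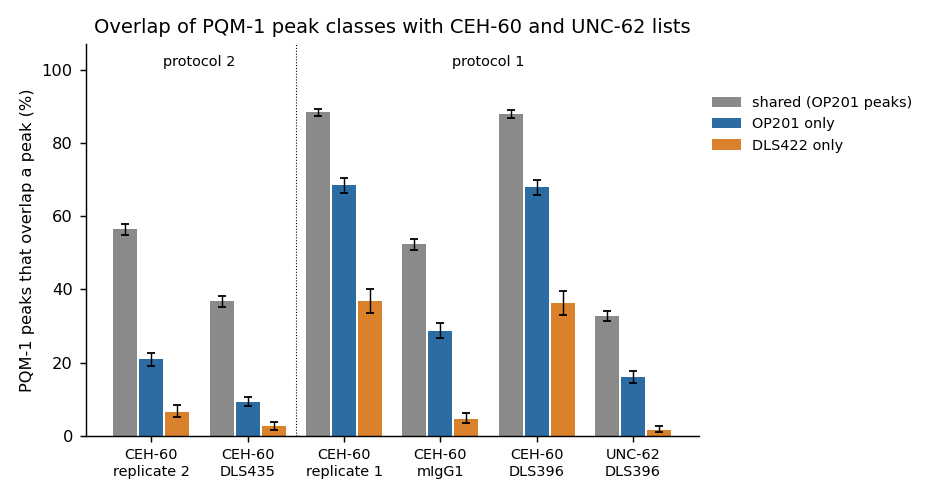
Share of PQM-1 peaks (%, y axis) that overlap a peak of each CEH-60 or UNC-62 list (x axis), for shared OP201 peaks (grey), OP201-only peaks (blue) and DLS422-only peaks (orange), with Wilson 95% intervals. Protocol 2 is that of the PQM-1 libraries and protocol 1 the one with longer crosslinking; CEH-60 replicate 2 overlaps 56.3%, 20.8% and 6.50% of the classes.

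Since shared peaks were stronger, OP201 peaks were also compared within quartiles of their fold. In each quartile, OP201 peaks with a CEH-60 replicate 2 peak were found in DLS422 more often than those without one. From the lowest quartile to the highest, the shares were 49.6 against 38.3%, 68.2 against 51.6%, 84.4 against 72.0% and 98.0 against 92.5%. None of these 4 pairs of 95% intervals overlapped. The sites with a CEH-60 peak were also wider within each quartile, with median widths from 269 against 231 bp in the lowest to 655 against 394.5 bp in the highest, and the part of width was not tested. When shared meant summits at most 200 bp apart, the shares were 40.5 against 30.2% in the lowest quartile and 94.0 against 89.8% in the highest. The intervals of the highest quartile then overlapped (92.6 to 95.2% and 85.2 to 93.1%). With peaks at most 500 bp apart, those of the lowest quartile overlapped (57.8 to 69.6% and 52.7 to 58.2%). For OP201 peaks with and without an UNC-62 peak the shares were 37.5 against 40.5%, 55.0 against 56.2%, 77.4 against 78.7% and 96.8 against 97.6%, and all 4 pairs of intervals overlapped. The UNC-62 list came from the protocol with longer crosslinking, whose CEH-60 lists differed from each other. Replicate 1 gave 42.1 against 37.3%, 59.1 against 47.1%, 78.8 against 70.1% and 97.2 against 90.9%, where the last share is 10 of 11 peaks and the intervals overlapped in all quartiles but the second. With mIgG1 the shares were 37.5 against 40.8%, 60.3 against 54.4%, 77.9 against 78.7% and 97.2 against 96.9%, with overlapping intervals throughout. The CEH-60 list of DLS396 gave 42.4 against 37.1%, 58.5 against 48.8%, 78.8 against 70.5% and 97.2 against 92.3%. Its intervals overlapped in all quartiles but the second. That of DLS435, of the same protocol as PQM-1, gave 55.5 against 38.9%, 71.2 against 53.9%, 86.4 against 75.2% and 98.5 against 94.8%. None of its 4 pairs overlapped, and its sites with a CEH-60 peak were also wider. The gap between OP201 peaks with and without a CEH-60 peak thus differed with the CEH-60 list used. Only with mIgG1 did the intervals overlap throughout.

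From the side of DLS422, peaks that also had a CEH-60 or an UNC-62 peak were more often found in OP201. By quartile of DLS422 fold, the shares with and without a CEH-60 replicate 2 peak were 93.8 against 56.3%, 94.3 against 68.7%, 98.2 against 85.2% and 99.9 against 97.5%. For UNC-62 they were 96.3 against 60.4%, 98.6 against 72.4%, 99.2 against 89.2% and 99.8 against 99.2%. The UNC-62 gap was thus seen in each quartile of DLS422 fold below the highest, and not among OP201 peaks. In the highest DLS422 quartile the intervals overlapped (99.1 to 99.97% and 98.2 to 99.7%). No test was made of these differences.

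**Figure D5:**
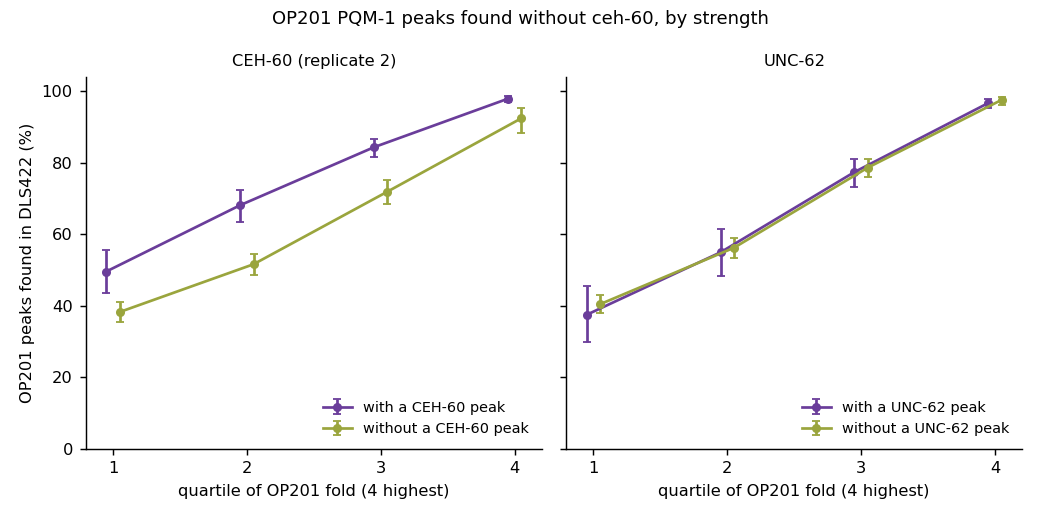
Share of OP201 PQM-1 peaks (%, y axis) that overlap a DLS422 peak, by quartile of OP201 fold (x axis, 4 highest), for peaks with (purple) and without (green) a CEH-60 replicate 2 peak (left) or an UNC-62 peak (right), with Wilson 95% intervals. On the left the purple points lie above the green in each quartile, from 49.6 against 38.3% to 98.0 against 92.5%; on the right they lie together.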

How the data were processed

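The submitters' processing notes name MACS2, Bowtie2, deepTools and SAMtools with no version. Not given in the sources used here were the genome build, the control library, and the handling of duplicate reads and of reads matching several sites. Peaks were called separately for each sample, as each list belongs to 1. In the deposited lists the fold is a linear ratio at the summit over local background, the −log10 q-value and the −log10 p-value also describe the summit, and every −log10 q was 2 or more. The score deposited by the authors is 10 times the −log10 q, and was not used.

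Lists were compared in Python 3.11.15 (pandas 2.3.3, numpy 2.4.6, scipy 1.17.1, matplotlib 3.10.9). An overlap of 1 bp made a peak shared, and the code was tested on simulated intervals. Groups follow the labelled strain, antibody and replicate. The 2 input samples, from DLS395 and OP201, were not analysed here. DLS422 has no input sample of its own, and the control used for its peaks was not given. Shares have Wilson 95% intervals, which cover counting error only, since read depth is unknown. With 1 library a group no test was made.

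Gene names came from a RefSeq table of the assembly WBcel235, of which no coordinate is printed. To check that the lists share its frame, genes were shifted against the summits, and the number of summits outside genes was highest at shifts of 20 bp (OP201) and −20 bp (DLS422). Of 2050 members of 39 lists, 2047 were found. The genes named belong to the 10 strongest peaks by fold with a bound gene in each class and list; further ones are up to 4 bound members of highest fold per gene list, the vitellogenins, ceh-60, unc-62, pqm-1 and unc-119. Some of these are left out for length, and members bound in 1 list were added after their values were seen. The strain pair, gene lists and rules were chosen with earlier results of these data known. Alternatives were other overlap rules, stricter or equally long lists, other gene windows and another CEH-60 list.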

Additional observations from a re-analysis of the deposited data

How the results depend on the processing

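Of 46 values of the main results under alternatives, 24 stayed within their interval or 1.5 times and 22 moved. The share of OP201 peaks found in DLS422 was 55.1% when the overlap had to reach 50% of both peaks, 61.8% with summits at most 200 bp apart, 75% with peaks at most 500 bp apart and 75.7% between the 2000 peaks of highest −log10 q of each list. The share of DLS422 peaks found in OP201 was 65.8%, 73.9%, 89.9% and 77.2% under the same rules, and 84.9% with both lists at a −log10 q of 5 or more. When the counted list alone was held to 5 or more, a setting chosen after seeing the data, the shares were 73.8% and 88.8%. The DLS422 share exceeded the OP201 share under each of these settings, but the gap was smallest between the equally long lists of 2000 peaks. There the 95% intervals overlapped (73.7 to 77.5% for OP201 and 75.4 to 79.0% for DLS422). Genes bound in 1 list numbered 524 (OP201) and 72 (DLS422) when no peak of the other list could lie within 5 kb. CEH-60 replicate 2 peaks met 52.7% of shared peaks with classes by a 500 bp gap. With both lists at 5 or more they met 62.7% of shared, 26.9% of OP201-only and 9.87% of DLS422-only peaks, and with CEH-60 replicate 1 in their place the shares were 88.3%, 68.4% and 36.8%. In DLS422, 1 vitellogenin gene was bound with a window of 2000 bp, and 1 when any peak within 1000 bp of the gene counted. Of 228 list counts, 178 stayed within 1.5 times and 50 moved; the strains swapped order in 1 list, fatty acid synthesis, with the 2000 bp window. No paired analysis was possible because each group has 1 library and the result comes from no test. For the same reason no replicate was left out. The 5′-end window was not run, since the table gives no strand, nor was the 5 kb rule for genes bound in both. Read depth is unknown, so weak sites missed in the shorter list cannot be told apart from unbound ones, and the number of peaks limits the precision.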

Other observations

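Some genes were covered along their length by PQM-1 peaks, and the strains differed in which. Of 16286 protein-coding genes of 1000 bp or more, 21 were covered over 80% or more of their length in OP201 and 19 in DLS422, with 9 in both. Coverage was 40 percentage points or more higher in OP201 at 12 genes and in DLS422 at 10. The OP201 genes included vit-6 (100% in OP201 and 0% in DLS422), ugt-6 (93.0 and 25.2%) and vit-2 (65.1 and 0%). Others were the aspartic protease gene asp-3 (55.3 and 6.44%) and the cystatin gene cpi-2 (71.4 and 27%). In the other direction stood the chemoreceptor gene srw-85 (0 and 64.7%), T19C9.8 (31.6 and 82.7%), T24C2.5 (3.74 and 49.8%) and ets-9 (6.15 and 49.1%). These genes were chosen after their values were seen. CEH-60 replicate 2 peaks covered 82.9% of vit-6, 59.8% of vit-2, 51.3% of ugt-6, 20.2% of asp-3, 54.8% of cpi-2, 29% of srw-85, 2.77% of T19C9.8, 21.5% of T24C2.5 and 0% of ets-9.

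Unshared peaks also came in runs, here 4 or more neighbouring peaks of a list, none of them shared, with gaps of at most 10 kb. OP201 had 22 such runs and DLS422 had 2. The longest OP201 run held 9 peaks and ended at vit-6 (IV 8229565 to 8267449). Runs of 7 peaks lay around vit-2 (X 5093997 to 5107651) and at IV 9653313 to 9674417, which takes in the nuclear hormone receptor gene nhr-34. Further runs of 4 peaks lay at the kinase genes pmk-2 and pmk-3 (IV 8139028 to 8142989) and at ugt-4, ugt-5 and ugt-6 (V 12788612 to 12794844). A run does not make its genes unbound in the other list. The genes ugt-4 and ugt-6 were bound in both lists, through a DLS422 peak beyond the run (V 12795106 to 12795522, fold 3.05). On nhr-34 there was a DLS422 peak with its summit outside the window. The DLS422 runs held 5 peaks at ddx-19 and lat-1 (II 8888794 to 8896277) and 4 peaks at arrd-11 and arrd-13 (II 13757477 to 13764495). How many runs lists of these lengths hold without any difference between the strains was not tested.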
